A study of Homo sapiens with 15 samples.

Results

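The Mediator complex was followed here through the transcripts of 32 genes in K562, a human line derived from a chronic myeloid leukaemia. The members were the rows of the deposited count tables whose Ensembl identifier carried 1 of 32 listed symbols, and all 32 were found among 57500 genes. By module they comprised 8 head subunits (MED6, MED8, MED11, MED17, MED18, MED20, MED22 and MED30), 9 middle subunits (MED1, MED4, MED7, MED9, MED10, MED19, MED21, MED26 and MED31), the scaffold subunit MED14, 8 tail subunits (MED15, MED16, MED23, MED24, MED25, MED27, MED28 and MED29) and 6 genes of the kinase module (MED12, MED13, MED13L, CDK8, CDK19 and CCNC). The placement of MED27, MED28, MED29 and MED14 differs between accounts of the complex. No measured value entered the rule, though the members were chosen with earlier results of these data known.

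Mediator is a large coactivator that passes signals from DNA-bound transcription factors to RNA polymerase II. Its head and middle contact the polymerase and the general transcription factors at the promoter, its tail receives most activators, MED14 holds these parts together, and the kinase module binds reversibly and modulates the core. JQ1 is a small-molecule inhibitor of the BET family of chromatin proteins.

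RNA was sequenced from 15 libraries in 5 groups of 3, each taken at 1 h. In 2 groups the cells were given 1 µM JQ1-FCPF, whose name carries that of the FCPF tag on the transfected Cas9FCPF protein, and these cells had been transfected with Cas9FCPF together with an sgRNA (JQ1-FCPF with sgRNA) or with Cas9FCPF alone (JQ1-FCPF without sgRNA). In 2 others free JQ1 was given at 1 µM to cells transfected in the same 2 ways (JQ1 with sgRNA, JQ1 without sgRNA). The control libraries carry the genotype label WT and the treatment label NT, while the text of the series speaks of DMSO, and no source used here says that control cells were transfected, so compound, Cas9FCPF and transfection cannot be told apart in any contrast with the control. The labels do not name the gene the sgRNA is directed at, which is MYC from knowledge of the study, and they write Cas9 where the title of the series writes dCas9, the form that does not cut DNA. Separate cultures are not mentioned for the replicates, so p-values measure how far these libraries vary among themselves, which may be technical. In bulk RNA, fewer cells of a kind and less RNA per cell cannot be told apart.

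Libraries held 12625669 to 17544518 counts, of which the 32 genes took 0.1667% to 0.1801%. Of the 5 groups, JQ1-FCPF with sgRNA and JQ1 with sgRNA each had 1 library that stood apart. On the first principal component (29% of the variance) JQ1-FCPF with sgRNA replicate 2 lay at 32.2, whereas replicates 1 and 3 lay at -16.7 and -14.8. The free JQ1 libraries lay at 16.8 to 24.6 on it, and those of the control and of JQ1-FCPF without sgRNA at -24.7 to -18.35. Replicate 2 was thus on the side of the free JQ1 libraries over all genes tested, and the cause was not tested. On the second component (15.5%) JQ1 with sgRNA replicate 1 lay at -12.5 and the other two at 5.03 and 4.93, and 7.46% of its counts were mitochondrial, the highest share of any library. Results that rest on these 2 libraries are therefore given with and without them. MYC measured 60.1, 57.2 and 60.9 CPM (counts scaled to library size, computed here from the deposited counts) in JQ1-FCPF with sgRNA, against 197, 136 and 171 CPM in JQ1-FCPF without sgRNA, and was called 2.83-fold lower (log2 fold change -1.50 ± 0.14 SE, edgeR adjusted p = 3.67e-07). The cell type label reads lymphoblast, while the erythroid genes HBG2 (443.6 to 850.0 CPM) and GATA1 (197.4 to 298.1 CPM) were high in every library and the B cell genes MS4A1 (at most 0.0581 CPM) and PAX5 (at most 0.154 CPM) were at or near 0.

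All 32 genes were expressed in these cells, over a wide range of levels. Levels between genes are compared per length, as TPM computed over the genes tested with the gene lengths in the deposited tables, averaged over the 15 libraries. MED15, the tail subunit bound by activators such as SREBP, was highest at 124.9 ± 8.27 TPM (SD over the 15 libraries). MED10 of the middle followed at 93.4 ± 13.6 TPM. These 2 subunits overlapped in range, since MED15 spanned 110.2 to 142.0 TPM and MED10 spanned 73.5 to 120.1 TPM. Below them came MED16 (74.9 TPM), MED25 (68.6 TPM), MED8 (66.2 TPM) and MED24 (63.7 TPM), whose ranges over libraries overlapped one another, and then a step down to MED4 (39.8 TPM). At the low end stood MED17 (7.09 TPM), MED31 (6.69 TPM) and MED7 (6.03 TPM), again with overlapping ranges. The median over all 32 was 22.4 TPM, beside 11.7 TPM over all 15517 genes tested, and 23 of the 32 lay above that second value. By module the median level was 48.6 TPM for the tail, 22.4 TPM for the head, 16.9 TPM for the kinase module, 14.2 TPM for the middle and 10.6 TPM for MED14. MED12L, a close relative of MED12 outside the list, had 0 to 6 counts per library and was not tested.

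**Figure D1:**
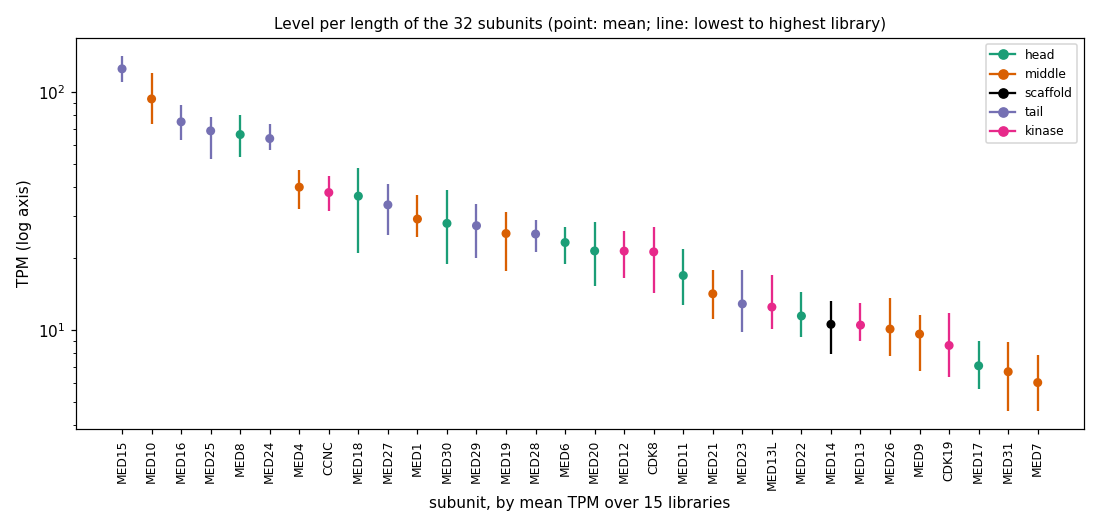
Mean TPM (log axis) of each of the 32 subunits over the 15 libraries, ordered from high to low and coloured by module, with a line from the lowest to the highest library. MED15 stands highest at 124.9 TPM and MED7 lowest at 6.03 TPM, and neighbours in the order overlap in range except MED24 and MED4.

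Mediator subunits were called about as often as genes in general. Counting every subunit in each of 9 comparisons gives 288 values, of which 17 passed an adjusted p of 0.05 (edgeR quasi-likelihood test with Benjamini-Hochberg adjustment over all genes tested), and these fell on 11 genes. That is 5.9% of the values, beside 5.73% of the 139653 values of all genes tested. The largest difference of any subunit was 1.89-fold, and 7 of the 288 values were over 1.5-fold. The other 21 genes were called in no comparison. How many of all genes tested were called in at least 1 comparison was not counted, so the 11 genes have no such share beside them. Comparisons that use the same libraries are not independent of each other, which holds for the 4 against the control and for all pairs that share a treated group.

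For JQ1-FCPF with sgRNA against JQ1-FCPF without sgRNA, the contrast in which only the sgRNA differs, 2 of 32 subunits fell, MED18 and MED9, and none rose. That is 6.25% of the subunits, beside 6.25% of all genes called in either direction and 4.2% of all genes called lower. The median log2 fold change was -0.052 over the subunits and 0.007 over all genes, and 19 subunits had values below 0. Head and middle subunits had medians of -0.232 and -0.149, the tail had -0.030, and the kinase module had 0.166. Without the 2 libraries that stood apart the head median was -0.174 and the kinase median was 0.063. The 30 subunits not called ranged from -0.375 (MED7) to 0.395 (CDK8). At an unadjusted edgeR p under 0.05 there were 9 of 32 subunits, beside 3375 of 15517 genes.

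The same sgRNA under free JQ1 gave no called subunit. In JQ1 with sgRNA against JQ1 without sgRNA, edgeR and DESeq2 each called 0 of 32, beside 0.0129% of all genes called by edgeR. At an unadjusted edgeR p under 0.05 there was 1 subunit (MED4, log2 fold change -0.29), beside 1264 of 15517 genes. Every subunit had a log2 fold change smaller than 0.4 in size, and the median was -0.044 over the subunits and 0.009 over all genes. Whether the sgRNA acted differently under the 2 compounds was tested as an interaction. It called 0 of 32 subunits with either tool, beside 0.786% of all genes in edgeR. At an unadjusted edgeR p under 0.05 there were 4 subunits (MED9, MED13L, MED18 and MED22), beside 2162 of 15517 genes. Without the 2 libraries that stood apart the interaction called 2, MED18 and MED13L, beside 3.25% of all genes.

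**Figure D2:**
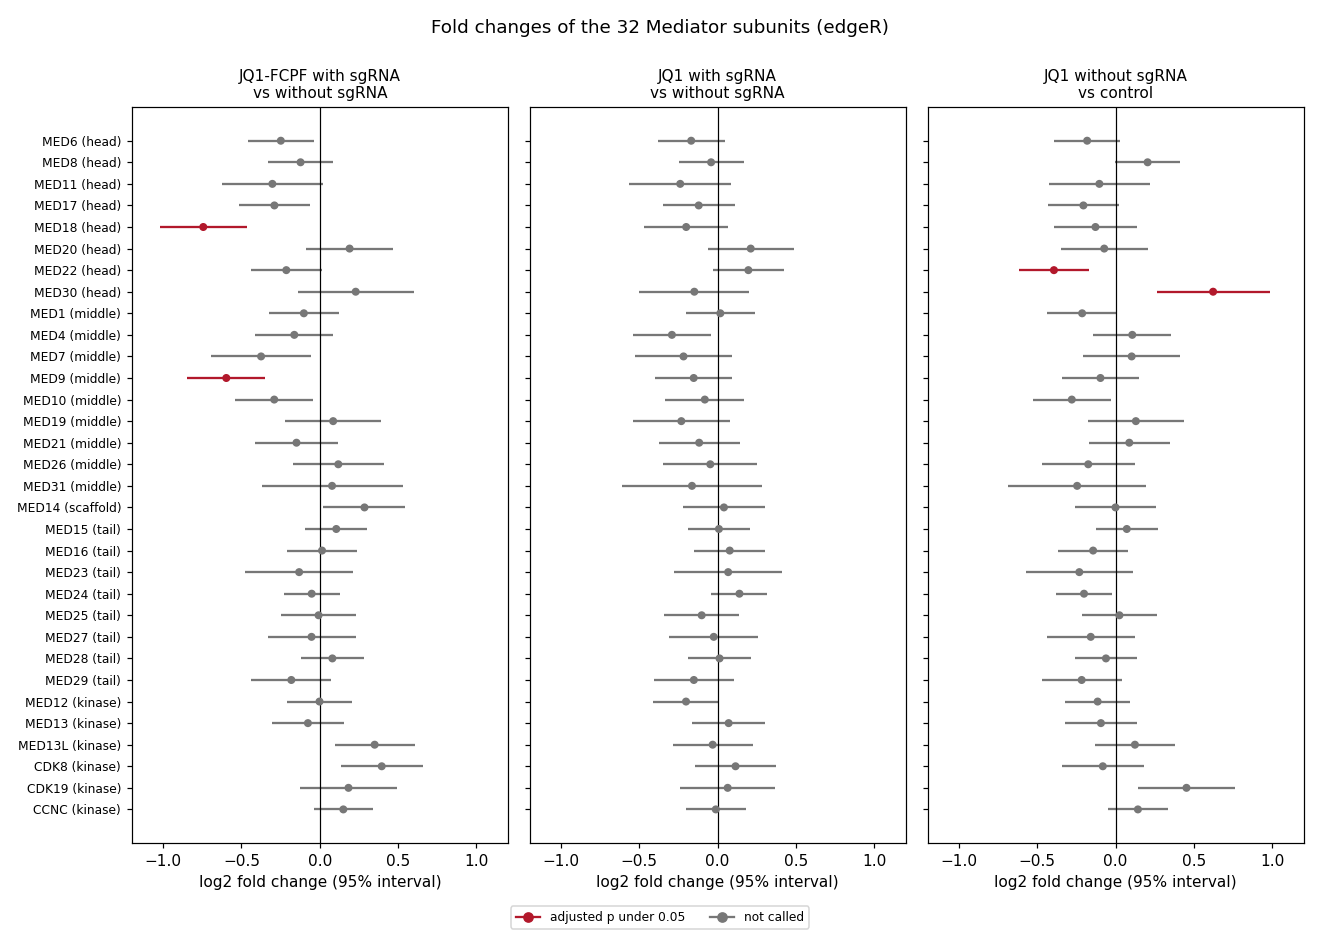
Log2 fold change of each subunit (point) with its 95% interval (line) from the edgeR fit, in 3 contrasts, with called subunits in red. MED18 and MED9 are called in JQ1-FCPF with against without sgRNA, no subunit in JQ1 with against without sgRNA, and MED30 and MED22 in JQ1 without sgRNA against control.

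In JQ1 without sgRNA against the control MED30 rose and MED22 fell, which is 2 of 32 beside 12.3% of all genes. JQ1 with sgRNA against the control gave 6 calls, CDK19 higher and MED6, MED10, MED12, MED17 and MED29 lower, beside 14.2% of all genes. The medians over the subunits were -0.095 without sgRNA and -0.108 with it, and over all genes -0.003 and 0.009. All 9 middle subunits had values below 0 in JQ1 with sgRNA against the control, from -0.409 (MED31) to -0.030, though MED10 alone of them was called. Without the libraries that stood apart 7 of the 9 were below 0, MED19 (0.069) and MED21 (0.026) were above it, MED31 was at -0.244, and MED1 and MED10 were called. Without the libraries that stood apart, JQ1 without sgRNA had 6 calls beside 26.9% of all genes, and JQ1 with sgRNA had 9 beside 22.8%.

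In JQ1-FCPF without sgRNA against the control no subunit was called by edgeR or DESeq2, beside 0.00644% of all genes called by edgeR. At an unadjusted edgeR p under 0.05 there were 0 subunits, beside 285 of 15517 genes. The values ran from -0.337 (MED31) to 0.191 (MED26), with a median of -0.005. In JQ1-FCPF with sgRNA against the control 4 subunits fell, MED18, MED9, MED6 and MED22, beside 7.21% of all genes called in either direction and 4.79% called lower. Its median was -0.041 over the subunits and 0.012 over all genes. Leaving out both libraries that stood apart, 4 were again called beside 11.1% of all genes, but these were MED18 and MED9 lower and MED13L and MED26 higher.

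The 2 compounds were also set side by side at the same dose and time. In JQ1-FCPF with sgRNA against JQ1 with sgRNA, MED18 was lower and MED26 higher, which is 2 of 32 beside 2.95% of all genes. In JQ1-FCPF without sgRNA against JQ1 without sgRNA, MED30 was lower, 1 of 32 beside 7.8% of all genes. The median log2 fold changes of the subunits were 0.052 and 0.027, beside -0.005 and 0.003 over all genes. Without the libraries that stood apart, the pair with sgRNA had 9 calls beside 20.2% of all genes and the pair without sgRNA had 4 beside 22.6%.

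**Figure D3:**
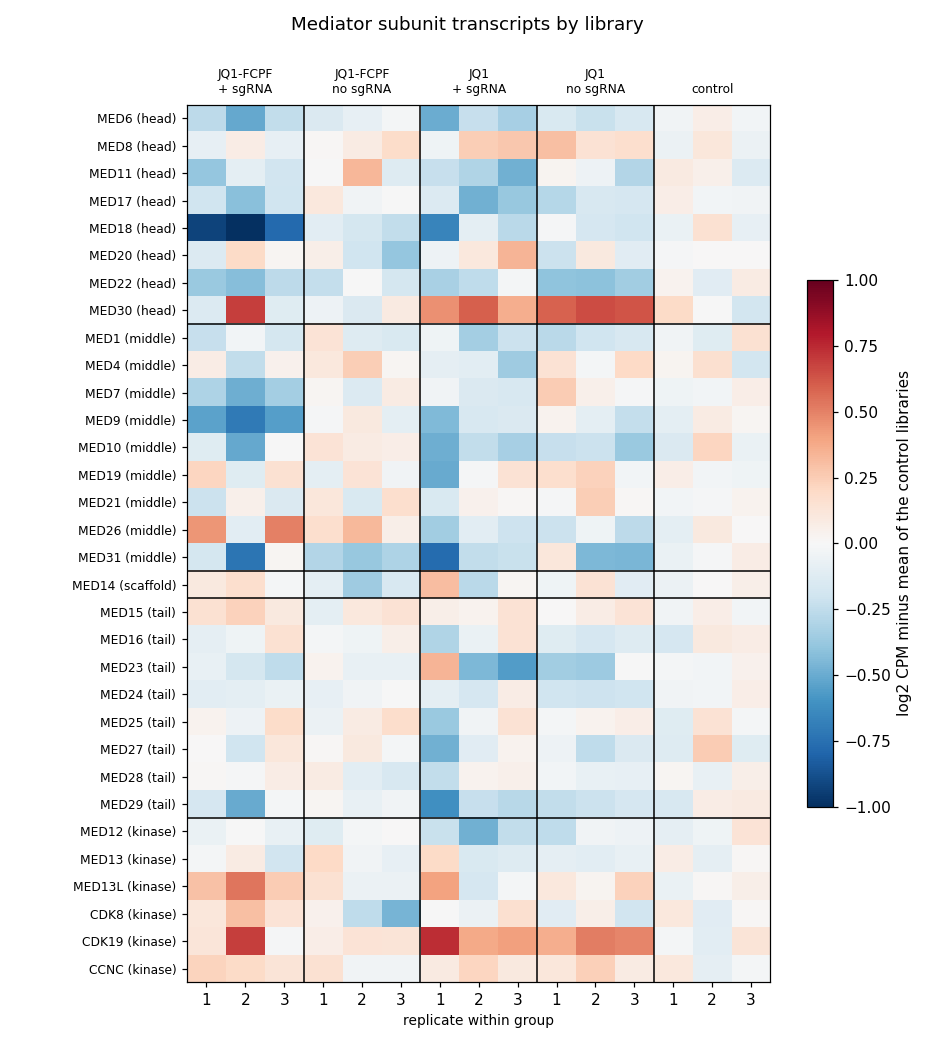
Log2 CPM of the 32 subunits (rows, by module) in each library (columns, by group), minus the mean of the control libraries, with the colour scale ending at -1 and 1. MED18 and MED9 are low in all 3 libraries of JQ1-FCPF with sgRNA, and MED30 and CDK19 are high in the 6 JQ1 libraries and in JQ1-FCPF with sgRNA replicate 2.

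MED18 had the largest change of the complex. With MED20 it forms the movable part of the head that reaches toward the polymerase, as known from the yeast complex. The gene (ENSG00000130772) lies on the plus strand at chr1:28329002-28335967 in GRCh38 coordinates, with no annotated gene overlapping it. It measured 15.2, 13.8 and 16.9 CPM in JQ1-FCPF with sgRNA, against 27.0, 25.7 and 24.4 CPM in JQ1-FCPF without sgRNA. Its levels in the other groups were 18.3, 27.2 and 24.1 CPM in JQ1 with sgRNA, 28.8, 25.8 and 25.3 CPM in JQ1 without sgRNA, and 27.8, 32.2 and 27.4 CPM in the control. All 3 libraries of JQ1-FCPF with sgRNA lay below every other library, and the library nearest to them was JQ1 with sgRNA replicate 1, which stood apart.

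MED18 fell 1.68-fold in JQ1-FCPF with sgRNA against JQ1-FCPF without sgRNA (log2 fold change -0.74 ± 0.13 SE, edgeR adjusted p = 0.00132). Against the control it fell 1.89-fold (-0.92 ± 0.13, adjusted p = 0.000104). Both calls held in all 12 alternatives, among them each fit that left out 1 library, with adjusted p-values of 1.6e-05 to 0.00967 for the first and 4.46e-09 to 0.00232 for the second. Against JQ1 with sgRNA it was 1.51-fold lower (-0.59 ± 0.13, adjusted p = 0.0176). That call was lost without JQ1 with sgRNA replicate 2 or 3, or without JQ1-FCPF with sgRNA replicate 1, where log2 fold changes were -0.58 to -0.46 and edgeR adjusted p-values 0.0618 to 0.108, and when these 2 groups were fitted alone (0.269). Under free JQ1 the sgRNA contrast gave -0.20 (95% interval -0.47 to 0.07). The interaction was -0.54 (95% interval -0.93 to -0.16, edgeR adjusted p = 0.194), and -0.61 with an adjusted p of 0.0251 without the 2 libraries that stood apart.

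MED9 was the second subunit to fall with the sgRNA. It is a small subunit of the middle module, encoded at chr17:17476986-17493226 on the plus strand (ENSG00000141026), also with no overlapping gene. It measured 14.6, 13.0 and 14.4 CPM in JQ1-FCPF with sgRNA, against 21.1, 22.6 and 19.8 CPM in JQ1-FCPF without sgRNA. The remaining libraries were at 15.6, 18.9 and 19.1 CPM in JQ1 with sgRNA, 21.8, 19.8 and 17.9 CPM in JQ1 without sgRNA, and 19.8, 22.5 and 21.4 CPM in the control. As for MED18, the 3 libraries of JQ1-FCPF with sgRNA were the lowest of all 15 and JQ1 with sgRNA replicate 1 came next. MED9 fell 1.51-fold against JQ1-FCPF without sgRNA (-0.60 ± 0.12, edgeR adjusted p = 0.00417) and 1.52-fold against the control (-0.60 ± 0.12, adjusted p = 0.00326). Both calls held in all 12 alternatives, with adjusted p-values up to 0.0336 and 0.0213. The interaction was -0.45 (edgeR adjusted p = 0.239), so a different response under free JQ1 was not shown for MED9.

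The start regions of these 2 genes are shown because they are the subunits that fell together. Each sequence runs from 250 bases before to 50 bases after the RefSeq start in GRCh38.p14, on the plus strand, with the letters of the searched motifs in capitals. For MED18 the window is chr1:28328790-28329089, and the capitals mark, in order, the YY1 core, 2 overlapping NRF1 cores and the ETS core. For MED9 it is chr17:17476750-17477049, and the capitals mark a GC box.
MED18: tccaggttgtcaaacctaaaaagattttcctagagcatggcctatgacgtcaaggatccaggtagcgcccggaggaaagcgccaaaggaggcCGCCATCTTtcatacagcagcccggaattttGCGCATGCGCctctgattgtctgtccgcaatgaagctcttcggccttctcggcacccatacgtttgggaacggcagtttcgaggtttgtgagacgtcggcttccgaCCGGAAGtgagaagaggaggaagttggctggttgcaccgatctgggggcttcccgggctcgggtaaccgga
MED9: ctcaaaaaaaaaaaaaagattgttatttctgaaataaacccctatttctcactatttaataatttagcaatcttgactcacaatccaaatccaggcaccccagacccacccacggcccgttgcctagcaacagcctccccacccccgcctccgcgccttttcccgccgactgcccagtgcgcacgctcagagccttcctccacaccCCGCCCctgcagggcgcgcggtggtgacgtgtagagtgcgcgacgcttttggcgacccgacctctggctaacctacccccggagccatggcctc
Motifs were searched on both strands, and windows could be matched for 24 of the 32 subunits (29 windows, since some genes have several starts), to be read beside all 35116 windows. A gene with several windows counts once for each of them. The YY1 core (AAGATGGCG) of MED18 starts 158 bases before the RefSeq start. It was found in 13.8% of the subunits' windows (4 windows) and 1.75% of all windows. Its 2 NRF1 cores (GCGCATGC) are 1 stretch read on both strands. They were found in 10.3% of the subunits' windows (3 windows, of CDK19 and MED18 only) and 3.05% of all windows. The ETS core (CCGGAAG), 21 bases before the MED18 start, was in 27.6% (8 windows, MED7 more than once) and 10.3%. The GC box (GGGCGG) of MED9, 44 bases before its start, was in 62.1% (18 windows, CDK19 more than once) and 45.0%. The 2 windows shared none of the 8 motifs. Neither held the E-box CACGTG, the sequence bound by MYC with MAX, which was in 6.9% of the subunits' windows (CDK8 and MED13L) and 7.26% of all. The remaining motifs were CCAAT (34.5% and 34.6%), AGATAA (3.45% and 10.3%) and TATAAA (6.9% and 11.5%). These matches describe letters only, binding was not measured, and differences between the shares were not tested.

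MED30, a head subunit found in animals and not in yeast, was higher under free JQ1. The gene (ENSG00000164758) lies at chr8:117520713-117540262, 10.2 Mb from MYC on the same chromosome. It measured 16.3, 17.1 and 16.7 CPM in JQ1 without sgRNA, against 12.3, 10.8 and 9.47 CPM in the control. JQ1 with sgRNA gave 14.9, 16.4 and 13.9 CPM, JQ1-FCPF with sgRNA gave 9.79, 17.5 and 9.94 CPM, and JQ1-FCPF without sgRNA gave 10.4, 9.74 and 11.5 CPM. The 6 JQ1 libraries lay above all control and all JQ1-FCPF libraries without sgRNA, and among the JQ1-FCPF libraries with sgRNA replicate 2, which stood apart, was at the JQ1 level while the other two were at the control level.

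MED30 rose 1.54-fold in JQ1 without sgRNA against the control (0.62 ± 0.17, edgeR adjusted p = 0.0249). In JQ1-FCPF without sgRNA it was 1.59-fold lower than in JQ1 without sgRNA (-0.67 ± 0.18, adjusted p = 0.0267). The first call was lost in 5 of the 6 fits without 1 library (any JQ1 library, or control replicate 2 or 3), with log2 fold changes of 0.54 to 0.64 and edgeR adjusted p-values of 0.0603 to 0.129. The second was lost in each of the 6, at -0.73 to -0.61 and adjusted p-values of 0.0604 to 0.107. In JQ1 with sgRNA against the control the log2 fold change was 0.47 (adjusted p = 0.0679), and 0.48 (edgeR adjusted p = 0.0068) without JQ1 with sgRNA replicate 1 and JQ1-FCPF with sgRNA replicate 2. Without those 2 libraries MED30 was also lower in JQ1-FCPF with sgRNA than in JQ1 with sgRNA (-0.61, adjusted p = 0.00342).

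MED22, which pairs with MED11 in the head, and MED6, which joins the head to the middle, had small decreases. MED22 measured 23.6, 23.5 and 24.5 CPM in JQ1 without sgRNA, against 32.03, 28.8 and 33.1 CPM in the control, and in JQ1-FCPF with sgRNA it measured 24.1, 23.3 and 26.1 CPM. JQ1 with sgRNA (25.0, 26.2 and 30.9 CPM) and JQ1-FCPF without sgRNA (26.6, 31.1 and 27.6 CPM) lay between these groups and overlapped the control. MED22 fell 1.31-fold in JQ1 without sgRNA against the control (-0.39 ± 0.11, edgeR adjusted p = 0.0241). In JQ1-FCPF with sgRNA against the control the value was -0.35 ± 0.11 (adjusted p = 0.0497). The first call was lost without any 1 of the JQ1 libraries or control replicate 1 or 3 (-0.41 to -0.35, edgeR adjusted p = 0.067 to 0.122), and the second without any 1 of the 6 libraries (-0.41 to -0.31, 0.0503 to 0.193).

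MED6 measured 30.5, 25.6 and 30.7 CPM in JQ1-FCPF with sgRNA and 25.9, 31.1 and 29.02 CPM in JQ1 with sgRNA, against 35.6, 38.2 and 35.8 CPM in the control. JQ1-FCPF without sgRNA was at 33.0, 34.4 and 35.9 CPM and JQ1 without sgRNA at 32.8, 31.3 and 32.6 CPM. Both groups with sgRNA and JQ1 without sgRNA lay below all control libraries. In each group with sgRNA the library that stood apart was the lowest. The log2 fold change was -0.33 ± 0.10 in JQ1-FCPF with sgRNA (edgeR adjusted p = 0.0492) and -0.35 ± 0.10 in JQ1 with sgRNA (adjusted p = 0.026), both against the control. Without the 2 libraries that stood apart MED6 was -0.24 and not called in the first and -0.28 in the second (adjusted p = 0.0256). Leaving out 1 library lost the first call for each of the 6 (-0.38 to -0.24, edgeR adjusted p = 0.0514 to 0.161) and the second for each but JQ1 with sgRNA replicate 2 (-0.37 to -0.28, 0.0517 to 0.0939).

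MED17, the subunit around which the head is built, measured 25.1, 19.8 and 21.3 CPM in JQ1 with sgRNA, against 28.98, 27.1 and 27.0 CPM in the control. It was at 24.1, 20.7 and 24.1 CPM in JQ1-FCPF with sgRNA, 29.8, 26.9 and 27.6 CPM in JQ1-FCPF without sgRNA, and 22.7, 24.8 and 24.6 CPM in JQ1 without sgRNA. The control and JQ1-FCPF without sgRNA held the 6 highest libraries. MED17 was called in JQ1 with sgRNA against the control alone (-0.33 ± 0.11, edgeR adjusted p = 0.0496), and the value was -0.43 (adjusted p = 0.00209) without the libraries that stood apart. It lost the call in 5 of 6 fits without 1 library, the exception being JQ1 with sgRNA replicate 1 (-0.34 to -0.26, edgeR adjusted p = 0.0955 to 0.173). TAF1D lies on the opposite strand over part of MED17, and the sources used here do not say whether strand was used in counting. Of the other head subunits, MED8, MED11 and MED20 were called in no comparison.

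In the middle module, MED10 and MED26 were called besides MED9. MED10, a conserved core subunit, measured 44.9, 53.1 and 49.98 CPM in JQ1 with sgRNA, against 57.0, 73.0 and 60.2 CPM in the control. The other groups were at 57.9, 44.2 and 63.0 CPM (JQ1-FCPF with sgRNA), 69.5, 66.6 and 66.0 CPM (JQ1-FCPF without sgRNA) and 53.6, 54.4 and 48.6 CPM (JQ1 without sgRNA). All 6 JQ1 libraries lay below all 6 libraries of the control and of JQ1-FCPF without sgRNA. MED10 was called in JQ1 with sgRNA against the control (-0.36 ± 0.12, edgeR adjusted p = 0.0466) and was -0.30 (adjusted p = 0.025) without the libraries that stood apart. That call was lost without control replicate 2 or 3 or any JQ1 library with sgRNA (-0.42 to -0.25, edgeR adjusted p = 0.0538 to 0.23).

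MED26, an animal subunit known to recruit elongation factors to the polymerase, measured 23.4, 16.0 and 24.5 CPM in JQ1-FCPF with sgRNA, against 13.5, 16.0 and 14.9 CPM in JQ1 with sgRNA. It was at 19.4, 21.7 and 17.97 CPM in JQ1-FCPF without sgRNA, 14.8, 16.7 and 14.4 CPM in JQ1 without sgRNA and 16.1, 18.4 and 17.2 CPM in the control. Replicate 2 of JQ1-FCPF with sgRNA was level with the highest JQ1 library with sgRNA, while replicates 1 and 3 were the 2 highest libraries of all. MED26 was 1.44-fold higher in JQ1-FCPF with sgRNA than in JQ1 with sgRNA (0.53 ± 0.14, edgeR adjusted p = 0.0429), and 0.65 on the log2 scale (adjusted p = 0.000406) without the libraries that stood apart. The call was lost without JQ1-FCPF with sgRNA replicate 1 or 3 or any JQ1 library with sgRNA (0.42 to 0.59, edgeR adjusted p = 0.0679 to 0.246). Several noncoding genes overlap MED26 on both strands.

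The other 6 middle subunits were called in no comparison. Among them MED7, which with MED21 forms the hinge of the middle module, had the lowest value of any uncalled subunit in JQ1-FCPF with sgRNA against JQ1-FCPF without sgRNA. It measured 4.82, 4.24 and 4.72 CPM in JQ1-FCPF with sgRNA, against 6.08, 5.46 and 6.37 CPM in JQ1-FCPF without sgRNA (-0.38 ± 0.15, edgeR adjusted p = 0.157). The scaffold subunit MED14 measured 35.9, 37.8 and 33.2 CPM in JQ1-FCPF with sgRNA, against 31.4, 26.3 and 30.0 CPM in JQ1-FCPF without sgRNA. The groups did not overlap, yet the difference was not called (0.28, edgeR adjusted p = 0.19). Its range over the other 9 libraries was 27.8 to 41.7 CPM, which overlaps both groups.

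The 8 tail subunits had log2 fold changes between -0.182 and 0.105 in JQ1-FCPF with sgRNA against JQ1-FCPF without sgRNA. MED29, a subunit described in animals, was the single tail gene called in the fit of all 15 libraries. It measured 25.1, 32.7 and 31.7 CPM in JQ1 with sgRNA, against 34.3, 40.3 and 40.8 CPM in the control. JQ1-FCPF with sgRNA gave 34.2, 27.0 and 37.8 CPM, JQ1-FCPF without sgRNA gave 38.8, 36.3 and 37.4 CPM and JQ1 without sgRNA gave 32.4, 33.0 and 34.1 CPM. The 2 lowest libraries of all 15 were the 2 that stood apart. Its call (-0.37 ± 0.12, edgeR adjusted p = 0.0484) was lost without them (-0.26), and without JQ1 with sgRNA replicate 1 or 3 or control replicate 2 or 3 (-0.42 to -0.26, edgeR adjusted p = 0.0615 to 0.174). MED23, a tail subunit known from its contact with the adenoviral activator E1A and with ELK1, was not called, and JQ1 with sgRNA replicate 1 was far from its partners at 42.8 CPM, beside 24.8 and 22.9 CPM. Without that library and JQ1-FCPF with sgRNA replicate 2, MED23 was called lower in JQ1 with sgRNA, set against control (-0.51 ± 0.11, edgeR adjusted p = 0.00106). MED15, the highest subunit per length, ranged from 375 to 471 CPM and was called in no comparison.

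Further calls were made once the 2 libraries that stood apart were left out. MED8, which ties MED18 to the rest of the head in yeast, was then higher in JQ1 without sgRNA (0.21, edgeR adjusted p = 0.0445) and in JQ1 with sgRNA (0.26, adjusted p = 0.034), each against the control, and lower in JQ1-FCPF with sgRNA than in JQ1 with sgRNA (-0.33, adjusted p = 0.0162). MED1, the middle subunit bound by nuclear receptors, was lower in JQ1 with sgRNA, set against control (-0.28, edgeR adjusted p = 0.0329). MED24 of the tail was lower in JQ1 without sgRNA, set against control (-0.19, edgeR adjusted p = 0.0487). MED10 was higher in JQ1-FCPF without sgRNA than in JQ1 without sgRNA (0.37, edgeR adjusted p = 0.00263), as was MED26 (0.36, adjusted p = 0.0116). MED26 was also higher in JQ1-FCPF with sgRNA, set against control (0.49, edgeR adjusted p = 0.00326). CDK19 was lower in JQ1-FCPF than in JQ1, both with sgRNA (-0.33, edgeR adjusted p = 0.0431) and without it (-0.35, adjusted p = 0.00885). In JQ1-FCPF with sgRNA against JQ1 with sgRNA, MED9 was lower (-0.38, edgeR adjusted p = 0.0303), while MED12 (0.30, adjusted p = 0.0433) and MED23 (0.35, adjusted p = 0.0356) were higher. Against the control, MED13L was higher in JQ1-FCPF with sgRNA (0.28, edgeR adjusted p = 0.0357) and MED10 was lower in JQ1 without sgRNA (-0.27, adjusted p = 0.0202). Fewer libraries were used in these fits, and the share of all genes called was higher in each of them, as given above.

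In the kinase module CDK19 and MED12 were called. CDK19, the close relative of CDK8 that can take its place as the kinase of the module, is encoded on the minus strand at chr6:110609978-110815958 (ENSG00000155111). It measured 28.7, 22.3 and 22.9 CPM in JQ1 with sgRNA and 22.1, 24.5 and 24.1 CPM in JQ1 without sgRNA, against 17.0, 15.9 and 18.7 CPM in the control. JQ1-FCPF with sgRNA gave 18.7, 27.7 and 17.0 CPM and JQ1-FCPF without sgRNA gave 18.01, 18.8 and 18.8 CPM. All 6 JQ1 libraries were above all control libraries, and as for MED30, JQ1-FCPF with sgRNA replicate 2 was at the JQ1 level and its partners at the control level. CDK19 rose 1.43-fold in JQ1 with sgRNA against the control (0.52 ± 0.15, edgeR adjusted p = 0.0245). In JQ1 without sgRNA against the control it missed the threshold (0.45, adjusted p = 0.0503), and passed without the libraries that stood apart (0.46, edgeR adjusted p = 0.000666), where the value in JQ1 with sgRNA was 0.39 (adjusted p = 0.00804). The call in JQ1 with sgRNA was lost without JQ1 with sgRNA replicate 1 or any 1 control library (0.39 to 0.59, edgeR adjusted p = 0.0543 to 0.0971).

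CDK8 itself was called in no comparison. It measured 26.7, 30.5 and 27.2 CPM in JQ1-FCPF with sgRNA, against 25.4, 20.7 and 17.8 CPM in JQ1-FCPF without sgRNA (0.40 ± 0.13, edgeR adjusted p = 0.0645). The ratio of CDK19 to CDK8 per length was 0.478 ± 0.0412 in JQ1 without sgRNA and 0.462 ± 0.0807 in JQ1 with sgRNA, against 0.329 ± 0.0267 in the control (SD, n = 3 each). In JQ1-FCPF with sgRNA the ratio was 0.352 ± 0.0697 and in JQ1-FCPF without sgRNA 0.421 ± 0.0826. CDK8 was thus the more abundant kinase per length in every group, and these ratios were not tested.

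MED12, which activates the kinase, was 1.25-fold lower in JQ1 with sgRNA, set against control (-0.32 ± 0.10, edgeR adjusted p = 0.0378). It measured 47.7, 39.9 and 47.0 CPM in JQ1 with sgRNA, against 52.3, 54.1 and 61.3 CPM in the control. In JQ1-FCPF with sgRNA it was at 53.2, 55.7 and 53.0 CPM, in JQ1-FCPF without sgRNA at 51.1, 55.1 and 56.0 CPM, and in JQ1 without sgRNA at 46.7, 54.4 and 53.8 CPM. The lowest library was JQ1 with sgRNA replicate 2, and the call was lost without it, without replicate 3 of that group or without control replicate 2 or 3 (-0.35 to -0.24, edgeR adjusted p = 0.0522 to 0.188). Without the libraries that stood apart the value was -0.37 (adjusted p = 0.00704).

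MED13L and MED13 are alternative subunits that tie the kinase module to the core. MED13L measured 79.1, 93.8 and 77.2 CPM in JQ1-FCPF with sgRNA, against 71.8, 62.0 and 62.0 CPM in JQ1-FCPF without sgRNA (0.35 ± 0.12, edgeR adjusted p = 0.0955), and it was called in no comparison over all 15 libraries. Every library of JQ1-FCPF with sgRNA was above every library of JQ1-FCPF without sgRNA. JQ1 with sgRNA gave 85.5, 57.4 and 63.7 CPM, with replicate 1 far above its partners. Without that library and JQ1-FCPF with sgRNA replicate 2, MED13L was called higher in JQ1-FCPF with sgRNA than in JQ1 with sgRNA (0.38 ± 0.10, edgeR adjusted p = 0.00656) and in the interaction (0.49 ± 0.13, adjusted p = 0.0266). The ratio of MED13L to MED13 per length was 1.42 ± 0.0806 in JQ1-FCPF with sgRNA, against 1.06 ± 0.0259 in JQ1-FCPF without sgRNA (SD, n = 3 each). It was 1.15 ± 0.0929 in JQ1 with sgRNA, 1.25 ± 0.0750 in JQ1 without sgRNA and 1.08 ± 0.0919 in the control. The lowest ratio in JQ1-FCPF with sgRNA (1.33, replicate 1) was level with the highest in any other group (1.327, JQ1 without sgRNA replicate 3), and the ratio was not tested. CCNC, the cyclin of the module, was called in no comparison.

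Other genes that work beside Mediator were read in the same fits. In JQ1-FCPF with sgRNA against JQ1-FCPF without sgRNA, edgeR and DESeq2 called 0 of 18 general transcription factor genes, beside 6.25% of all genes in edgeR. Their median log2 fold change was 0.021, and 1 of the 18 had an unadjusted edgeR p under 0.05, beside 3375 of 15517 genes. In JQ1 without sgRNA against the control 3 of the 18 were called, beside 12.3% of all genes. MNAT1 (0.43 ± 0.12, edgeR adjusted p = 0.0297), a subunit of the kinase part of TFIIH, and GTF2F2 (0.31 ± 0.09, adjusted p = 0.0309), of TFIIF, were higher, and GTF2F1 (-0.38 ± 0.12, adjusted p = 0.0437), the partner of GTF2F2, was lower. In JQ1 with sgRNA against the control 2 of the 18 were called, beside 14.2% of all genes. Both MNAT1 (0.38, edgeR adjusted p = 0.0413) and ERCC2 (0.37, adjusted p = 0.016), a helicase of TFIIH, were higher. 

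Cohesin, the ring complex that with its loader NIPBL is found with Mediator at enhancers, had 7 genes tested. STAG1, an alternative subunit of the ring, was the one called, 1 of 7 in each of 4 comparisons, beside 14.2% of all genes in JQ1 with sgRNA and 12.3% in JQ1 without sgRNA, both against the control, and 2.95% and 7.8% in JQ1-FCPF against JQ1 with and without sgRNA. It measured 7.02, 6.86 and 6.48 CPM in JQ1 with sgRNA and 6.11, 6.003 and 5.45 CPM in JQ1 without sgRNA, against 12.2, 11.6 and 13.3 CPM in the control. JQ1-FCPF with sgRNA gave 11.6, 8.88 and 12.1 CPM and JQ1-FCPF without sgRNA gave 12.7, 9.74 and 11.8 CPM. The 6 JQ1 libraries lay below the 9 others. STAG1 fell 1.82-fold in JQ1 with sgRNA (-0.87 ± 0.15, edgeR adjusted p = 0.00142) and 2.11-fold in JQ1 without sgRNA (-1.08 ± 0.15, adjusted p = 0.000513), both against the control. It was higher in JQ1-FCPF than in JQ1, both with sgRNA (0.68 ± 0.15, edgeR adjusted p = 0.0144) and without (0.96 ± 0.15, adjusted p = 0.00292).

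Markers of other cells were read in the same libraries. Of 5 fibroblast markers, COL1A1 was the one tested, and it was higher in JQ1-FCPF with sgRNA than in JQ1-FCPF without sgRNA (1.30 ± 0.24, edgeR adjusted p = 0.00165), the contrast in which MED18 and MED9 fell. The 5 markers summed to 4.40 to 6.73 CPM in JQ1-FCPF with sgRNA, against 2.09 to 2.30 CPM in JQ1-FCPF without sgRNA. COL1A1 made up most of these sums (mean 4.85 against 1.96 CPM). COL1A2 (at most 0.216 CPM), LUM (at most 0.0654 CPM), COL3A1 (at most 0.307 CPM) and DCN (at most 0.383 CPM) were low in every library. Sums in the other groups were 3.48 to 4.705 CPM (JQ1 with sgRNA), 3.37 to 3.59 CPM (JQ1 without sgRNA) and 1.815 to 3.495 CPM (control). In the same contrast 3 of 8 K562 markers were lower, the erythroid regulators NFE2 (-1.14), KLF1 (-0.75) and TAL1 (-0.53), and the 8 summed to 1591 to 1773 CPM with sgRNA, against 1827 to 2050 CPM without. The part of these differences in the subunits' values was not tested. The 5 B cell markers summed to at most 6.18 CPM in any library. CD3D (17.4 to 32.4 CPM), EPCAM (63.9 to 81.8 CPM) and KRT19 (95.1 to 163.9 CPM), from the lists of T and epithelial cell markers, were detected in all 15 libraries.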

How the data were processed

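Gene expression was measured by RNA sequencing in 15 K562 libraries. The authors deposited raw read counts for 57500 genes in 1 table per library, and the columns, per the file headers, follow the output of a feature counter, so that each table gives the position and length of each gene. Aligner, genome build, annotation, library kit and use of strand: not given in the sources used here. Among the identifiers, 56898 were found in GENCODE release 29 (GRCh38), 96.3% of them with the same start and end, as were 28 of the 32 Mediator genes.

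Groups were taken from the labels. From the deposited counts, edgeR 4.0.16 in R 4.3.3 kept 15517 genes by filterByExpr, scaled libraries by TMM and fitted its quasi-likelihood model, with a mean for each group, to all 15 libraries (biological coefficient of variation 11.1%). P-values were adjusted by Benjamini-Hochberg over all genes tested, and a gene was called at an adjusted p under 0.05. CPM are TMM-scaled, and TPM used the deposited gene lengths. The SE was derived from the log2 fold change and the F statistic. The scripts were tested on simulated data. Pairs of replicates differed beyond sampling noise (chi-square per degree of freedom 2.96 to 49.0 over genes with at least 20 counts in the pair). Promoter windows are RefSeq sequences of GRCh38.p14.

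Values in every library are given for each member called in any comparison, and where a module had none, for the members with the smallest p. The members, lists and alternatives were chosen with earlier results of these data known. Names with values that this rule does not give were chosen after their values were seen. They are MED1, MED4, MED7, MED8, MED13, MED13L, MED15, MED16, MED19, MED21, MED23, MED24, MED25, MED31 and CDK8. As alternatives the data were fitted with DESeq2 1.42.0, with edgeR under size factors from DESeq2, without the filter on low counts, on the 2 groups of a comparison alone, with a replicate block made of the title letters, leaving out each library, leaving out both libraries that stood apart, and another assignment of modules.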

Additional observations from a re-analysis of the deposited data

How the results depend on the processing

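No called subunit changed sign in any of its 12 alternatives. The order of the 10 highest subunits was the same in RPKM, which uses the same counts and lengths as TPM and so could hardly differ. The number of called subunits moved by over 1.5 times in the following cases. For JQ1-FCPF with sgRNA against control (4 called), DESeq2 size factors, no filter on low counts, the replicate block and a fit of only these groups each gave 2. For JQ1-FCPF with sgRNA against JQ1 with sgRNA (2 called), the replicate block gave 1, only these groups gave 0, and leaving out both libraries that stood apart gave 9. For JQ1-FCPF without sgRNA against JQ1 without sgRNA (1 called), DESeq2 and no filter each gave 2, and only these groups and leaving out both libraries each gave 4. For JQ1 without sgRNA against control (2 called), only these groups gave 7 and leaving out both libraries gave 6. For JQ1 with sgRNA against control (6 called), only these groups gave 3. Leaving out both libraries gave 2 for the interaction (0 called). The cause of these shifts was not tested. Leaving single libraries aside, the other 39 of these 54 counts stayed within 1.5 times. Without both libraries the share of all genes called was also higher, as in JQ1 without sgRNA against control (26.9%, beside 12.3% with all 15 libraries). For the other alternatives, and for the fits without 1 library below, the share of all genes is not given. These counts therefore do not describe the subunits apart from genes in general.

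Leaving out 1 library at a time moved the count by over 1.5 times in 28 of 60 fits and gave 2 to 3 calls for JQ1-FCPF with against without sgRNA, 0 to 0 for JQ1 with against without sgRNA, 0 to 1 for JQ1 without sgRNA against control, 0 to 4 for JQ1 with sgRNA against control, 0 to 0 for JQ1-FCPF without sgRNA against control, 2 to 3 for JQ1-FCPF with sgRNA against control, 0 to 4 for JQ1-FCPF against JQ1 with sgRNA, 0 to 0 for JQ1-FCPF against JQ1 without sgRNA, and 0 to 1 for the interaction.

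Pairing by the title letters was not seen in the counts, where 4 of 30 same-letter pairs of libraries had a correlation of residuals over 0.1. Same-letter pairs ran from -0.238 to 0.311 (median -0.0085), beside a median of 0.018 for pairs of different letters. This check cannot show whether samples with the same letter were handled together. With the letter as a replicate block, MED18 and MED9 were still called in JQ1-FCPF with sgRNA against both JQ1-FCPF without sgRNA and control. With MED27, MED28 and MED29 counted in the head, its median log2 fold change was -0.197 in JQ1 with sgRNA against control, 0.016 in JQ1-FCPF against JQ1 with sgRNA and 0.096 in JQ1-FCPF against JQ1 without sgRNA. With 3 libraries a group, the smallest called difference was 1.25-fold (MED12), and reads shared with overlapping genes (TAF1D for MED17, TXNDC17 for MED31) or with MED15P9 (92 to 271 counts, beside 5612 to 7286 for MED15) cannot be separated.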
